A study of Mus musculus with 25 samples.

Results

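Superoxide is made from oxygen by the respiratory chain and by NADPH oxidases, and a set of enzymes turns it into hydrogen peroxide and then into water. The levels of 10 genes of this pathway were followed in the *soleus* of mice with and without DNA methyltransferase 3A in muscle fibers, at rest and after a treadmill bout. The genes were 3 superoxide dismutases (*Sod1*, *Sod2*, *Sod3*), catalase (*Cat*), 2 subunits of an NADPH oxidase (*Nox4*, *Cyba*), 2 peroxiredoxins (*Prdx3*, *Prdx5*) and the mitochondrial thioredoxin pair (*Txn2*, *Txnrd2*). They were taken by symbol from the 52636 genes of the RNA count table, and all 10 were found and tested.

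Total RNA of 25 C57BL/6 mice of 12 weeks was sequenced, 1 library per mouse, from 13 males and 12 females. WT mice carried floxed *Dnmt3a* alleles (Dnmt3a flox/flox) without Cre, and mD3AKO mice carried the same alleles with a Cre transgene under the muscle creatine kinase promoter (Dnmt3a flox/flox mCK-Cre Tg), which deletes exon 19. This promoter is active in muscle fibers and heart and comes on late in differentiation, so satellite cells and the non-muscle cells of the tissue are likely to keep the gene, which was not measured here. The groups were 5 WT and 7 mD3AKO mice at rest, which had spent 30 minutes in a sham arena, and 7 WT and 6 mD3AKO mice killed 60 minutes after a 30-minute bout at 16 m/min and a 5% incline. The comparison asked how the bout, the loss of DNMT3A and their combination bear on the transcripts of superoxide sources and scavengers.

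As background, SOD1 works with copper and zinc in the cytosol and the space between the mitochondrial membranes, SOD2 works with manganese in the mitochondrial matrix, and SOD3 is secreted and bound to the extracellular matrix. Hydrogen peroxide made in the matrix is removed mainly by PRDX3 and PRDX5, which are reduced again by thioredoxin 2 (*Txn2*), itself reduced by thioredoxin reductase 2 (*Txnrd2*) at the cost of NADPH. Catalase breaks down hydrogen peroxide in peroxisomes. NOX4 is an NADPH oxidase that releases mostly hydrogen peroxide and needs p22phox, the membrane subunit encoded by *Cyba*, which also serves the oxidase of phagocytes. Contracting muscle makes more superoxide, and the fibers of the *soleus*, a slow and oxidative muscle, are rich in mitochondria.

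Of the 10 genes, 9 had an entry in the RefSeq promoter table (build GRCm38.p6, 250 bases before to 50 bases after the transcription start), and *Sod3* did not. 3 windows are shown because the RNAs of these genes varied together across mice and differed between the sexes, as described further on. Sequences run 5′ to 3′ on the strand of the gene, with matches to the GC box, GGGCGG, on either strand in capitals.
*Sod2* (chr17:13007589-13007888, plus strand): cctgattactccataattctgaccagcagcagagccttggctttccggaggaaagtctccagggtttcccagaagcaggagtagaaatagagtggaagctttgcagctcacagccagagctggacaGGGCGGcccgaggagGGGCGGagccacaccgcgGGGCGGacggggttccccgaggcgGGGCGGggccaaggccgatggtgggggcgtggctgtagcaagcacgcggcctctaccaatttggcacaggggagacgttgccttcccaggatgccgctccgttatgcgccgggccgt
*Prdx3* (chr19:60874489-60874788, minus strand): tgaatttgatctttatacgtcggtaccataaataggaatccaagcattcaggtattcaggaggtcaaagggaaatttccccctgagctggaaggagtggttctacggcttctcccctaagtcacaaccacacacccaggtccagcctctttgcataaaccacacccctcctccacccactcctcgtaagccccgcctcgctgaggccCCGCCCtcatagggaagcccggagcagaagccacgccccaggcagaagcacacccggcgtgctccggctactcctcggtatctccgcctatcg
*Prdx5* (chr19:6910057-6910356, minus strand): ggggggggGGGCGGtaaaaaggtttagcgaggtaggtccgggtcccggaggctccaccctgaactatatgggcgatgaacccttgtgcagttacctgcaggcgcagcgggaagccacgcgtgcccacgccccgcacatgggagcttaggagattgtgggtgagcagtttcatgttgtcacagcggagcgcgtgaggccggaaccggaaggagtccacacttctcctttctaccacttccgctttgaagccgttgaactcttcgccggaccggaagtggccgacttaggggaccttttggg

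The GC box, a short element of many housekeeping promoters, was found in 9 of 9 windows, against 35.7% of the 32851 windows of the table, and *Sod1* and *Sod2* held 4 matches each. The core of the antioxidant response element, TGACNNNGC, was found on either strand in the *Sod1* window alone, against 12.4% of all windows. The FOXO site GTAAACA (3.65% of all windows) and the E-box CACGTG (7.15%) were in 0 of the 9. The windows of the 9 genes are rich in G and C, from 57% in *Prdx3* to 68.3% in *Nox4*, where the median window of the table held 52.7%. These matches describe the letters of the windows only.

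The libraries held 22671457 to 37431801 counts, with a median of 32189360, and at that median a level of 1 CPM stands for 32.2 counts. CPM are counts scaled to a common library total, here the TMM-normalized one, a scaling that matches libraries on the bulk of their genes. *Dnmt3a* stood at 34.5 to 53.9 CPM in the 13 mD3AKO libraries and at 93.4 to 130.5 CPM in the 12 WT libraries, counted over the whole gene, so that the genotypes did not overlap. The muscle and slow fiber markers, such as *Myh7*, summed to 64934 to 86893 CPM, with 0 of 8 markers at 0. Mouse 15, a rested mD3AKO male, had the fewest counts, and 3 genes of ribosomal RNA took 39.5% of them, a share that was 7.75% to 13.0% in the remaining 24 libraries. As the labels do not say whether mice shared a litter or cage, p-values measure the spread between these 25 mice.

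Compared per kilobase of exon, the 10 transcripts spanned a wide range, with 6 scavengers above both sources and *Nox4* at the bottom (plot of levels per exon length). *Sod1* led with 162 ± 10.2 CPM per kb (mean ± SD, n = 25 here and below), ahead of *Prdx3* with 148 ± 14.6 in 22 of 25 libraries. *Cat* followed with 118 ± 12.8, below *Prdx3* in 24 libraries, and *Sod2* with 91.8 ± 11.5, below *Cat* in all 25. The upper part of the order thus held in nearly every mouse. *Prdx5* (62.6 ± 8.77), *Txn2* (31.7 ± 3.56) and *Cyba* (7.73 ± 1.86 CPM per kb) came next, each below the one before in 25 of 25 libraries. *Sod3* (2.72 ± 0.601) and *Txnrd2* (2.69 ± 0.207) did not differ beyond their spread, with *Sod3* the higher in 9 of 25 libraries. *Nox4* was last with 0.780 ± 0.318 CPM per kb, below *Txnrd2* in 24 libraries. Exon lengths were those deposited with the counts, and a long untranslated end that the muscle does not use lowers a gene on this scale.

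**Figure D1:**
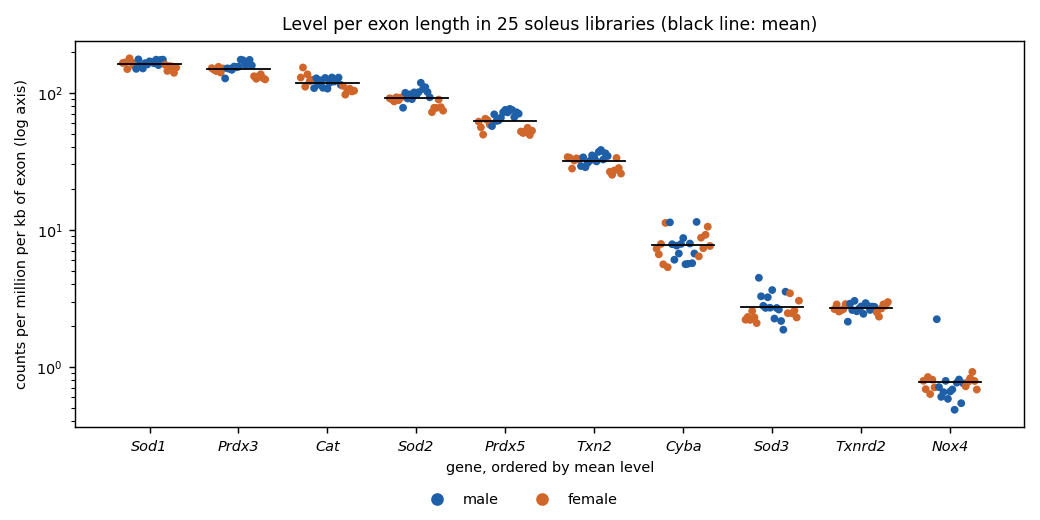
Level of each gene in CPM per kilobase of exon (log axis) in the 25 *soleus* libraries, genes ordered by their mean (black line), males in blue and females in orange. *Sod1* has the highest mean, 162 CPM per kb, and *Nox4* the lowest, 0.780.

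Among the dismutases, *Sod1* (ENSMUSG00000022982, chr16:90220742-90226322 of mm10, plus strand) was the steadiest of the 10 genes, with a coefficient of variation of 6.34% across the 25 libraries and 1518 to 4108 counts per library. In the 5 rested WT mice *Sod1* stood at 104, 106, 107, 108 and 109.7 CPM. Its lowest, median and highest levels were 98.8, 108 and 115 CPM in exercised WT mice, 90.4, 104 and 113 CPM in rested mD3AKO mice and 96.2, 101 and 113 CPM in exercised mD3AKO mice. The 4 groups overlapped, and the pair of lowest values came from rested mD3AKO mice. This gave means ± SD of 107 ± 2.29 (WT, rest), 107 ± 6.56 (WT, exercised), 102 ± 8.38 (mD3AKO, rest) and 102 ± 5.94 CPM (mD3AKO, exercised). *Sod2* (ENSMUSG00000006818, chr17:13007839-13018119 of mm10, plus strand) rested on 6475 to 14891 counts. *Sod2* counted 276, 344, 349, 368 and 387 CPM in the 5 rested WT mice. Exercised WT mice spanned 283 to 409 CPM (median 348), rested mD3AKO mice 298 to 453 CPM (median 343) and exercised mD3AKO mice 331 to 420.0 CPM (median 354). The groups overlapped, and the highest value was that of mouse 15, the library rich in ribosomal RNA. The group means ± SD were 345 ± 41.8 CPM in WT mice at rest, 345 ± 44.9 in WT mice after exercise, 351 ± 58.9 in mD3AKO mice at rest and 362 ± 31.6 in mD3AKO mice after exercise. Its coefficient of variation was 12.5%. *Sod3* (ENSMUSG00000072941, chr5:52363791-52371418 of mm10, plus strand), the secreted form, was far less abundant, with 144 to 655 counts and a coefficient of variation of 22.1%. Rested WT mice held 8.26, 8.43, 9.23, 12.1 and 13.6 CPM of *Sod3*. Its lowest, median and highest levels were 6.99, 9.57 and 11.4 CPM in exercised WT mice, 8.58, 10.1 and 16.7 CPM in rested mD3AKO mice and 7.81, 8.93 and 13.2 CPM in exercised mD3AKO mice. Rested mice of both genotypes reached higher than exercised mice, but the ranges overlapped. This gave means ± SD of 10.3 ± 2.39 (WT, rest), 9.42 ± 1.40 (WT, exercised), 11.3 ± 2.89 (mD3AKO, rest) and 9.51 ± 2.04 CPM (mD3AKO, exercised).

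*Cat* (ENSMUSG00000027187, chr2:103453849-103485160 of mm10, minus strand) is the catalase of peroxisomes and counted 4834 to 13636 reads per library. The 5 WT libraries at rest gave *Cat* levels of 280.3, 285, 294, 309 and 338 CPM. Exercised WT mice spanned 270.3 to 357 CPM (median 316), rested mD3AKO mice 253 to 399.9 CPM (median 334) and exercised mD3AKO mice 280.1 to 328 CPM (median 311). The widest spread was among rested mD3AKO mice, which held both the lowest and the highest library of all 25. The group means ± SD were 301 ± 23.4 CPM in WT mice at rest, 309.8 ± 32.2 in WT mice after exercise, 316 ± 51.0 in mD3AKO mice at rest and 307 ± 20.6 in mD3AKO mice after exercise. The largest distance between 2 group means was 4.89% of the lower one, or 14.7 CPM, well under the largest SD within a group, 51.0 CPM.

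*Prdx3* (ENSMUSG00000024997, chr19:60864051-60874556 of mm10, minus strand), the peroxiredoxin that is found in mitochondria only, rested on 3655 to 8614 counts. At rest, *Prdx3* was at 195, 224, 229, 229.7 and 258 CPM in the WT mice. Its lowest, median and highest levels were 185, 221 and 257 CPM in exercised WT mice, 187, 218 and 256 CPM in rested mD3AKO mice and 202, 220.0 and 239 CPM in exercised mD3AKO mice. The groups overlapped almost entirely. This gave means ± SD of 227 ± 22.2 (WT, rest), 219 ± 24.8 (WT, exercised), 213 ± 25.7 (mD3AKO, rest) and 221 ± 13.8 CPM (mD3AKO, exercised). *Prdx5* (ENSMUSG00000024953, chr19:6906697-6910106 of mm10, minus strand), which also works in peroxisomes and the cytosol, had 2336 to 5850 counts. In the 5 rested WT mice *Prdx5* stood at 112, 132, 141, 154 and 161 CPM. Its lowest, median and highest levels were 112, 135 and 161 CPM in exercised WT mice, 105, 122 and 163 CPM in rested mD3AKO mice and 106, 129.8 and 151 CPM in exercised mD3AKO mice. Each group again held both low and high mice. This gave means ± SD of 139.8 ± 19.3 (WT, rest), 135 ± 18.5 (WT, exercised), 132 ± 23.3 (mD3AKO, rest) and 129.6 ± 16.2 CPM (mD3AKO, exercised). Its exons share 409 bases with *Trmt112* on the other strand, whose own counts were 4.06% of those of *Prdx5*. *Txn2* (ENSMUSG00000005354, chr15:77915047-77929006 of mm10, minus strand), the small protein that reduces both, had 2231 to 5869 counts. *Txn2* counted 112, 133, 134, 142 and 143 CPM in the 5 rested WT mice. Exercised WT mice spanned 108 to 161 CPM (median 135), rested mD3AKO mice 106 to 156 CPM (median 141) and exercised mD3AKO mice 118 to 146 CPM (median 138). The 4 medians lay close together within ranges that overlapped. The group means ± SD were 133 ± 12.6 CPM in WT mice at rest, 133 ± 19.7 in WT mice after exercise, 134 ± 17.8 in mD3AKO mice at rest and 135 ± 9.82 in mD3AKO mice after exercise. The 4 means of *Txn2* lay within 1.46% of each other, the narrowest span of the 10 genes. *Txnrd2* (ENSMUSG00000075704, chr16:18426384-18479073 of mm10, plus strand), the reductase, was read 184 to 490 times. Rested WT mice held 10.7, 11.0, 11.2, 11.6 and 12.2 CPM of *Txnrd2*. Its lowest, median and highest levels were 11.4, 11.7 and 13.1 CPM in exercised WT mice, 9.42, 12.3 and 12.9 CPM in rested mD3AKO mice and 11.2, 12.3 and 13.4 CPM in exercised mD3AKO mice. The lowest library was a rested mD3AKO mouse, mouse 7, and the other libraries formed 1 overlapping range. This gave means ± SD of 11.4 ± 0.553 (WT, rest), 12.0 ± 0.603 (WT, exercised), 11.7 ± 1.35 (mD3AKO, rest) and 12.2 ± 0.818 CPM (mD3AKO, exercised).

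Of the sources, *Nox4* (ENSMUSG00000030562, chr7:87246096-87398710 of mm10, plus strand) was scarce, with 59 to 740 counts per library. The 5 WT libraries at rest gave *Nox4* levels of 5.61, 5.81, 6.12, 6.71 and 6.71 CPM. Exercised WT mice spanned 4.61 to 7.00 CPM (median 5.80), rested mD3AKO mice 4.13 to 18.9 CPM (median 6.04) and exercised mD3AKO mice 5.55 to 7.79 CPM (median 6.64). A single mouse, number 7, stood far above the rest, and the remaining mice of its group stood at 4.13 to 6.69 CPM, within or close to the ranges of the other groups. The group means ± SD were 6.19 ± 0.508 CPM in WT mice at rest, 5.89 ± 0.916 in WT mice after exercise, 7.59 ± 5.06 in mD3AKO mice at rest and 6.63 ± 0.809 in mD3AKO mice after exercise. Its coefficient of variation of 40.8% rested on that mouse and was 14.2% without it, below those of *Cyba* and *Sod3*. *Cyba* (ENSMUSG00000006519, chr8:122424776-122432930 of mm10, minus strand) had 84 to 462 counts. At rest, *Cyba* was at 5.84, 6.66, 6.99, 7.58 and 9.06 CPM in the WT mice. Its lowest, median and highest levels were 5.83, 7.63 and 11.7 CPM in exercised WT mice, 5.87, 8.20 and 11.8 CPM in rested mD3AKO mice and 5.55, 8.09 and 11.9 CPM in exercised mD3AKO mice. High mice of 11 CPM and over were found in 3 of the 4 groups. This gave means ± SD of 7.22 ± 1.20 (WT, rest), 7.80 ± 1.92 (WT, exercised), 8.72 ± 2.11 (mD3AKO, rest) and 8.19 ± 2.35 CPM (mD3AKO, exercised). The plot of all 10 genes by group shows these values mouse by mouse.

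**Figure D2:**
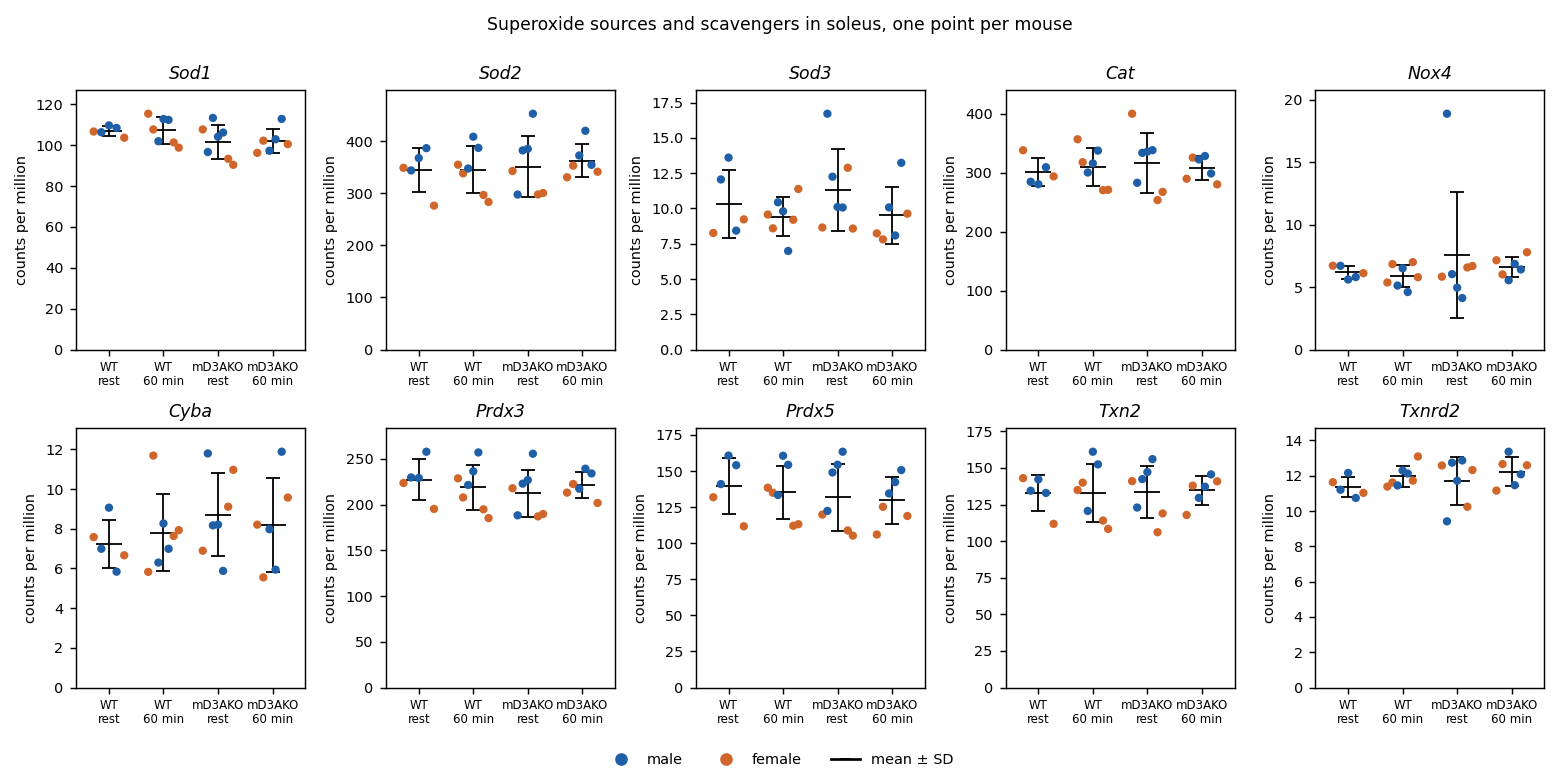
CPM of the 10 genes in each of the 25 mice, by genotype and exercise (5, 7, 7 and 6 mice from left to right), males in blue and females in orange, with mean ± SD in black; the vertical axes start at 0. The groups overlap for every gene, and the *Nox4* point at 18.9 CPM in rested mD3AKO mice is mouse 7.

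Exercise left no detectable mark on these transcripts at 60 minutes. In edgeR's quasi-likelihood test, with p-values adjusted over 16340 genes by Benjamini-Hochberg, 0 of the 10 passed an adjusted p of 0.05 for the main effect of exercise, where 10.4% of all genes did (932 higher and 767 lower). 0 of the 10 had an unadjusted p under 0.05 either, and DESeq2 called 0 of 10 as well, also with 0 unadjusted. The main effect is the average of the responses of WT and mD3AKO mice, as a log2 fold change of exercised over rested mice. *Sod1* (0.004, SE 0.039), *Cat* (0.001, SE 0.065), *Prdx3* (0.0023, SE 0.059) and *Txn2* (0.0083, SE 0.068) had estimates next to 0. The matrix dismutase *Sod2* stood at 0.023 (SE 0.074) and *Prdx5* at -0.036 (SE 0.082). The largest estimates were those of *Sod3*, at -0.19 (SE 0.11, adjusted p = 0.365), and *Nox4*, at -0.14 (SE 0.17, adjusted p = 0.731), both below 0, and of *Txnrd2*, at 0.07 (SE 0.049, adjusted p = 0.471), above 0. The *Nox4* estimate became 0.069 without mouse 7. The median over the 10 genes was 0.0032, beside -0.00088 over all genes tested.

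The intervals say how large a response these data could have missed. For *Sod1* the 95% interval of the exercised over the rested level ran from 0.95 to 1.06, for *Sod2* from 0.91 to 1.13 and for *Prdx3* from 0.92 to 1.09. It was wider for *Cyba*, 0.83 to 1.21, and for *Nox4*, 0.71 to 1.15, which became 0.93 to 1.18 without mouse 7. Within WT mice 0 of 10 passed (3.59% of all genes) and within mD3AKO mice 0 of 10 (6.02% of all genes) by the same edgeR test, with 0 of 10 at an unadjusted p under 0.05 in both. *Sod3* had a log2 fold change of -0.13 (SE 0.17) in WT and -0.25 (SE 0.16) in mD3AKO mice. Leaving out 1 mouse at a time, these lay between -0.20 and -0.0064 in WT mice and between -0.38 and -0.13 in mD3AKO mice, with the values nearest to 0 without mouse 13 and mouse 7. Exercised mice stood above the median of the rested mice in 3 of 13 cases for *Sod3* and in 5 to 8 of 13 for the other 9 genes.

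Some markers of other cell types of the tissue were called for exercise. By the same edgeR test 10.4% of all genes were called, 932 higher and 767 lower. Of 7 endothelial markers, 5 were lower in exercised mice by edgeR, and the 4 with the smallest adjusted p were *Kdr*, the VEGF receptor 2 (-0.58 on the log2 scale, SE 0.072, adjusted p = 2.1e-06), *Tek* (-0.35, SE 0.063, adjusted p = 0.00029), *Emcn* (-0.27, SE 0.060, adjusted p = 0.0026) and *Cldn5* (-0.59, SE 0.13, adjusted p = 0.0037). The 7 markers summed to 347 to 475 CPM in the rested and 296 to 386 CPM in the exercised mice, with 0 markers at 0. In bulk tissue, fewer cells of a type and less RNA per cell cannot be told apart. The call of *Emcn* was lost with library totals in place of TMM (adjusted p = 0.0612), and those of *Tek*, *Emcn* and *Cldn5* in females alone, that of *Cldn5* in males alone too. Of 5 smooth muscle markers 1 was higher, *Cnn1*, a calponin (0.38, SE 0.11, adjusted p = 0.029), a call lost without any 1 of 5 mice, with library totals, with no filter, in the 8 groups with sex and in either sex alone. The 5 summed to 160.2 to 208 CPM in rested and 163 to 220.1 CPM in exercised mice. Of 2 neutrophil markers that passed the filter, of 4 listed, 1 was lower, *S100a9* (-1.28, SE 0.41, adjusted p = 0.043), a call lost without any 1 of 16 mice, with library totals, with no filter and in either sex alone. The 4 summed to 0.361 to 1.53 CPM in rested and 0.0901 to 1.04 CPM in exercised mice, close to 0 in both. Of 6 fibroblast markers 0 passed, with 2 at an unadjusted p under 0.05, and of 8 macrophage, 5 adipocyte and 5 red blood cell markers 0 passed, with 0 unadjusted. The part of endothelial cells, smooth muscle cells and neutrophils in the estimates of *Sod3*, *Nox4* and *Cyba*, which vascular cells or phagocytes also make, was not tested.

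Loss of DNMT3A did not change the 10 transcripts detectably either. For the main effect of genotype 0 of 10 passed by edgeR, where 0.269% of all genes did, with 0 of 10 at an unadjusted p under 0.05 by edgeR or DESeq2. *Sod1* had the smallest p, with a log2 fold change of mD3AKO over WT mice of -0.072 (SE 0.039, adjusted p = 0.877), or 0.95-fold (95% interval 0.899 to 1.01). *Nox4* had the largest estimate, 0.24 (SE 0.17, adjusted p = 0.949), which became 0.031 without mouse 7. Its partner *Cyba* stood at 0.17 (SE 0.13, adjusted p = 0.964). The median over the 10 genes was 0.032, beside 0.0070 over all genes tested. The other 7 genes lay between -0.074 (*Prdx5*) and 0.075 (*Sod3*). The *Sod3* estimate became 0.015 without mouse 7 and 0.13 without mouse 13, that of *Prdx5* lay between -0.11 and -0.047 on leaving out 1 mouse at a time, and that of *Cyba* between 0.10 and 0.23. At rest 0 of 10 passed (0.0918% of all genes) and after exercise 0 of 10 (0.11% of all genes).

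The response to exercise was also not detectably different between the genotypes. By edgeR, 0 of 10 genes and 0% of all genes passed for the interaction, with 0 of 10 and 403 of 16340 at an unadjusted p under 0.05, and DESeq2 gave 0 of 10 too. The difference of the responses, mD3AKO minus WT, ran from -0.21 (SE 0.26) for *Cyba* to 0.11 (SE 0.12) for *Prdx3*. Its 95% interval, as a fold change, was 0.89 to 1.12 for *Sod1* and 0.83 to 1.27 for *Sod2*. For *Nox4* it reached from 0.56 to 1.47 around a difference of -0.14. Without mouse 7 that difference was 0.27 (SE 0.16), the highest of the 10, with an interval of 0.95 to 1.53, and that of *Sod3* went from -0.12 to -0.0076, or to -0.25 without mouse 13. Leaving out 1 mouse at a time, the difference lay between -0.35 and -0.09 for *Cyba* and between 0.063 and 0.17 for *Prdx3*.

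**Figure D3:**
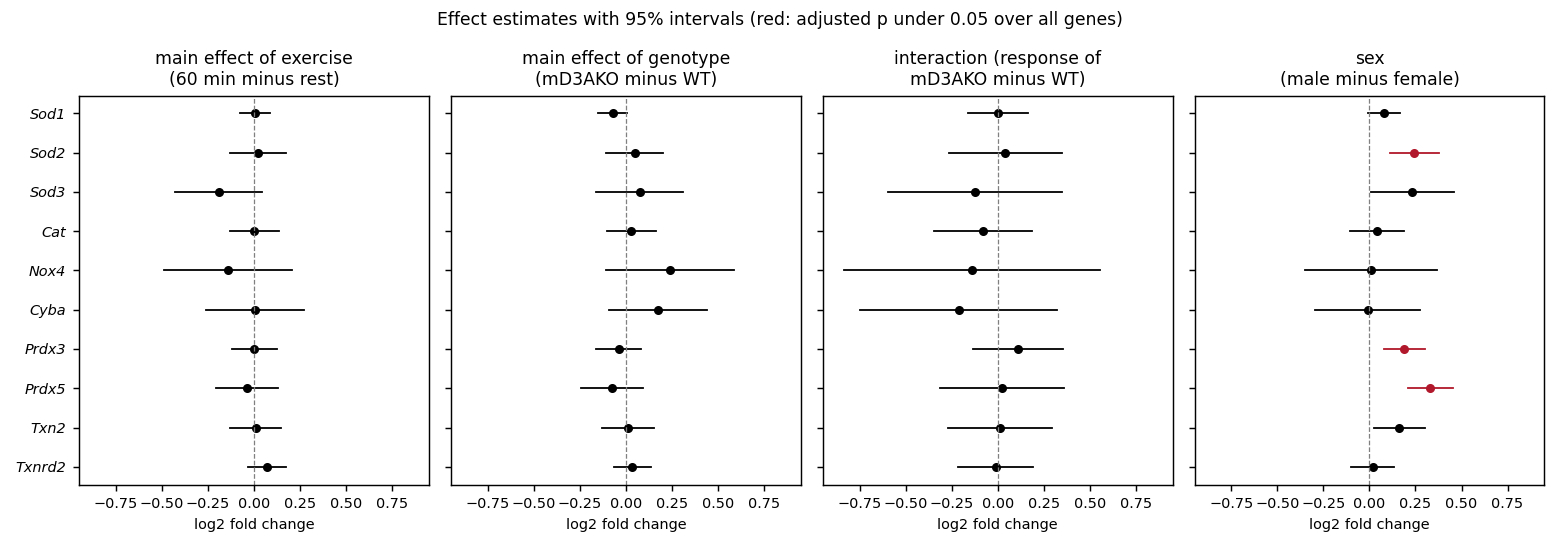
Log2 fold changes of the 10 genes with 95% intervals for the main effect of exercise, the main effect of genotype, the interaction and sex, from edgeR; red marks an adjusted p under 0.05 over all genes tested. Red appears only in the panel of sex, at *Sod2* (0.24), *Prdx3* (0.19) and *Prdx5* (0.33), with TMM scaling; with library totals 0 of 10 passed there.

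Sex was the factor for which members passed, with TMM scaling and not with library totals. With the 8 groups of sex, genotype and exercise, edgeR called 3 of the 10 genes at an adjusted p under 0.05, all higher in males, where 8.15% of the 17389 genes tested were called in either direction and 5.36% as higher in males. All 3 encode enzymes that remove superoxide or peroxide in mitochondria. *Prdx5* ran from 105 through a median of 116 to 138 CPM in the 12 females and from 122 through 151 to 163 CPM in the 13 males. 10 of the 13 males stood above every female, and all 13 above the median female. The log2 fold change was 0.33 (SE 0.058, adjusted p = 0.00098), or 1.26-fold (95% interval 1.16 to 1.37). *Sod2* ran from 276 through 335 to 355 CPM in females and from 298 through 382 to 453 CPM in males. 9 males stood above every female, and 12 above the median female, with a log2 fold change of 0.24 (SE 0.065, adjusted p = 0.0223). *Prdx3* ran from 185 through 205 to 229 CPM in females and from 188 through 229.7 to 258 CPM in males. 8 males stood above every female, and the log2 fold change was 0.19 (SE 0.054, adjusted p = 0.0322).

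Of the others, *Txn2* (0.16, SE 0.067, adjusted p = 0.147) and *Sod3* (0.23, SE 0.11, adjusted p = 0.207) had an unadjusted p under 0.05 and did not pass. *Sod1* stood at 0.079 (SE 0.042, adjusted p = 0.273). *Cat*, *Txnrd2*, *Nox4* and *Cyba* had estimates from -0.0088 to 0.039, and that of *Nox4*, 0.011, became -0.19 without mouse 7 (edgeR adjusted p = 0.126). The *Sod3* estimate became 0.17 there, with an unadjusted p of 0.0995 by edgeR. The median over the 10 genes was 0.12, beside -0.0054 over all genes tested. The response to exercise differed between the sexes for 0 of 10 genes (0.046% of all genes; 0 of 10 at an unadjusted p under 0.05, and 0 of 10 by DESeq2).

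The sex difference was uneven among the females and depended on the scaling. The mouse numbers in the labels put females at 1 to 6 and 20 to 25 and males at 7 to 19, so that sex and the range of numbers cannot be told apart for the males. *Sod2* was at 331 to 355 CPM in females 1 to 6, at 276 to 341 CPM in females 20 to 25 and at 298 to 453 CPM in males. *Prdx3* was at 208 to 229 CPM in females 1 to 6 and at 185 to 202 CPM in females 20 to 25, and these ranges did not overlap. *Cat*, which was not called for sex, was at 289.7 to 399.9 CPM in females 1 to 6, at 253 to 294 CPM in females 20 to 25 and at 280.3 to 338 CPM in males. Without females 20 to 25, a setting added after the data were seen, 0 of 10 genes passed (3.61% of all genes, 1.72% as higher in males), with *Prdx5* at 0.23 (edgeR adjusted p = 0.0892), *Sod2* at 0.13 (adjusted p = 0.434) and *Prdx3* at 0.086 (adjusted p = 0.543). Without females 1 to 6, also added, 5 of 10 passed as higher in males (7.28% of all genes, 5.16% as higher), the same 3 and also *Txn2* (0.26, adjusted p = 0.0342) and *Cat* (0.20, adjusted p = 0.0467).

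With library totals in place of TMM, 0 of 10 genes passed for sex (4.3% of all genes, 0.874% as higher in males). That scaling moved the median gene to -0.12, and *Prdx5* stood at 0.21 (edgeR adjusted p = 0.063), *Sod2* at 0.12 (adjusted p = 0.233) and *Prdx3* at 0.065 (adjusted p = 0.485), all above it. It also turned the balance of all calls, from 932 higher and 486 lower in males to 152 higher and 596 lower. The factor by which TMM scales a library total was 1.05 to 1.15 in females 20 to 25, 0.963 to 1.07 in females 1 to 6 and 0.631 to 1.12 in males. Leaving out single mice, *Prdx5* passed in 25 of 25 fits, also without mouse 15, *Sod2* in 24 (adjusted p = 0.103 without mouse 20) and *Prdx3* in 11. The calls of *Prdx3* were lost without any 1 of mice 3, 8, 12, 14, 15, 16, 17, 18, 20, 21, 22, 23, 24 and 25, with adjusted p up to 0.128 without mouse 20, and its log2 fold change stayed between 0.16 and 0.22 over the 25 fits.

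**Figure D4:**
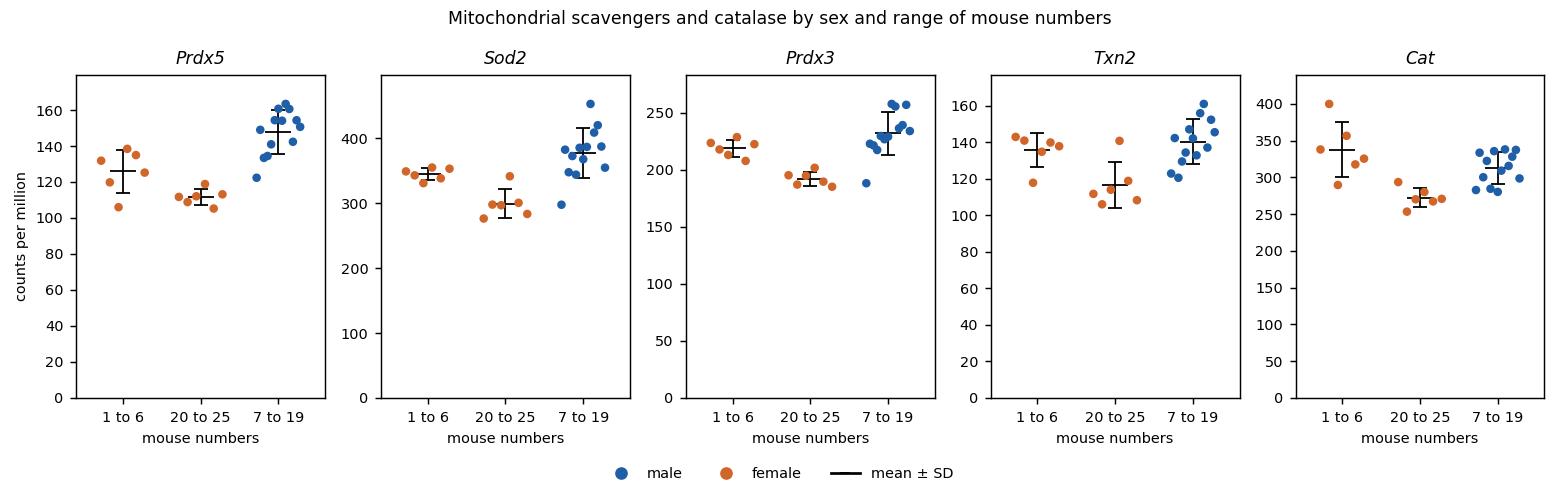
CPM of *Prdx5*, *Sod2*, *Prdx3*, *Txn2* and *Cat* in females 1 to 6, females 20 to 25 and males 7 to 19 (6, 6 and 13 mice), with mean ± SD in black; the vertical axes start at 0. Females 20 to 25 have the lowest mean in each panel.

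Other mitochondrial genes and fiber type genes moved with sex in the same libraries. Of the 17389 genes tested, edgeR called 8.15% for sex and 5.36% as higher in males (932 higher and 486 lower). Of 8 genes of mitochondria that take no part in oxidant removal, 4 were higher in males by edgeR, *Tomm20*, a subunit of the import channel (0.23, SE 0.047, adjusted p = 0.0041), *Uqcrc1* of complex III (0.29, SE 0.067, adjusted p = 0.0092), *Cox4i1* of complex IV (0.24, SE 0.061, adjusted p = 0.016) and *Ndufa9* of complex I (0.19, SE 0.052, adjusted p = 0.022). With TMM all 8 had estimates above 0, with a median of 0.19 beside 0.24, 0.19 and 0.33 for *Sod2*, *Prdx3* and *Prdx5*. Their summed level was 7477 to 8834 CPM in females 20 to 25, 8112 to 9197 CPM in females 1 to 6 and 7445 to 10098 CPM in males. The slow fiber genes *Myh7* (-0.49), *Tnni1* (-0.38), *Tnnc1* (-0.36) and *Tnnt1* (-0.35) were lower in males by the same test, 3 others of the 8 muscle markers were higher, and 3 of 6 fast fiber genes were higher, *Tnni2* (0.42), *Tnnt3* (0.36) and *Myh1* (0.50). The fast fiber genes summed to 10681 to 20704 CPM in females and 12783 to 25128 CPM in males, with 0 at 0. The 4 mitochondrial calls were lost with library totals and without females 20 to 25, those of *Cox4i1* and *Ndufa9* also without mouse 20 (adjusted p = 0.0727 and 0.0883), and that of *Ndufa9* without mouse 3, mouse 21 or females 1 to 6. The call of *Myh1* was lost without any 1 of 20 mice and that of *Tnnt3* with library totals, as was that of *Myh1*. Those of *Tnnc1*, *Tnnt1*, *Tnnt3* and *Myh1* were lost without females 1 to 6. Their part in the difference of *Sod2*, *Prdx3* and *Prdx5* was not tested.

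Across the 25 libraries some of the members varied together, given here as a description with no test, since points share sex, number range and scaling. Among *Sod2*, *Prdx3*, *Prdx5* and *Txn2* the 6 pairwise Pearson correlations of log2 CPM ran from 0.77 to 0.89, and from 0.78 to 0.89 without mouse 7. Among *Nox4*, *Cyba* and *Sod3* they ran from 0.44 to 0.53, but from -0.013 to 0.45 without mouse 7, so that these 3 varied together in part through that library. The 12 correlations between both sets ran from -0.52 to 0.084. The genes most like each member were picked from 12686 genes by the same correlation. For *Sod2* these were *Slc25a3*, the mitochondrial phosphate carrier (r = 0.96, Spearman's rho = 0.96), *Chchd3* (0.96) and *Uqcrc2* (0.95). For *Prdx3* they were *Acat1* (0.96), *Atp5c1* of ATP synthase (0.96) and *Sucla2* (0.96), and for *Prdx5* they were *Mrps7* of the mitochondrial ribosome (0.94), *S100a1* (0.94) and *Trabd* (0.94). *Txn2* was closest to *Mrpl37* (0.93), *Ndufa11* (0.93) and *Atp5j2* (0.92).

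The other members had other neighbors. *Cat* was closest to *Chrna2* (r = 0.91), *Cpt1b*, which brings fatty acids into mitochondria (0.87), and *Oxsr1* (0.86). *Sod1* was closest to *Cuedc2* (0.86), *Ubxn6* (0.85) and *Arl2* (0.84). *Cyba* was closest to *Cotl1* (0.92), *Coro1a* (0.91) and *Crip1* (0.90), of which *Coro1a* is a gene of leukocytes. *Sod3* was closest to *Chpf2* (0.83), *Shc1* (0.78) and the collagen gene *Col8a1* (0.78). *Txnrd2* had no close neighbor, with *Aldh4a1* (0.74), *Pold1* (0.71) and *Dnajb12* (0.70) the nearest. *Nox4* was nearest to *Cilp* (r = 0.88), a matrix protein, and to the embryonic myosin genes *Myh3* (0.88) and *Myl4* (0.87), but with Spearman's rho of only 0.58, 0.59 and 0.47.

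Without mouse 7, a rested mD3AKO male, these *Nox4* correlations were 0.64, 0.58 and 0.49. Mouse 7 had 18.9 CPM of *Nox4*, where the other 24 mice had 4.13 to 7.79 CPM (median 6.08). It also had 506 CPM of *Myh3* (20.6 to 72.7 in the others), 65.3 CPM of *Myl4* (5.60 to 13.3) and 658 CPM of *Cilp* (99.2 to 218). *Sod3* was at its highest there, 16.7 CPM (6.99 to 13.6 in the others), and *Cyba* was second of 25, at 11.8 CPM. Of the matrix scavengers, *Prdx3* was at 188 CPM (23rd of 25), *Sod2* at 298 CPM (22nd), *Txn2* at 123 CPM (18th) and *Prdx5* at 122 CPM (17th), and *Txnrd2* was lowest of all, 9.42 CPM (10.2 to 13.4 in the others). The summed fibroblast markers reached 5452 CPM in this mouse, against 1102 to 3648 CPM in the others, and the macrophage markers 301 CPM, against 60.6 to 229.6 CPM. The red blood cell markers (464 CPM, against 72.9 to 415) and the neutrophil markers (1.53 CPM, against 0.0901 to 1.30) were also at their highest, and the smooth muscle markers at their lowest (160.2 CPM, against 163 to 220.1). The mitochondrial reference genes summed to 7445 CPM, the lowest of the 25 libraries. The part of these cells in the *Nox4*, *Sod3* and *Cyba* levels of mouse 7 was not tested. The plot of mouse 7 against the other mice shows sources and *Sod3* above, and the other 6 scavengers and *Txnrd2* below, the middle of the range.

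**Figure D5:**
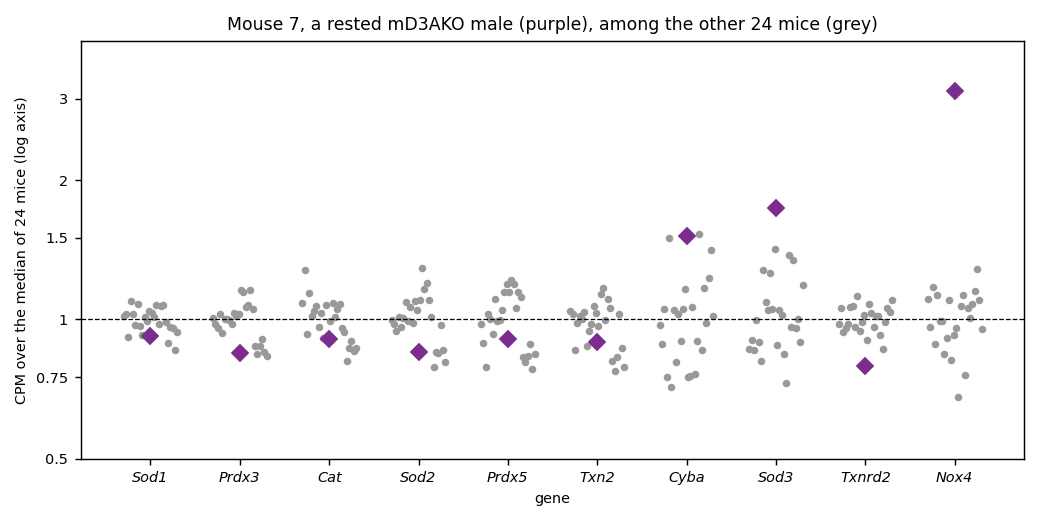
Level of each gene in mouse 7 (purple diamond) and in the other 24 mice (grey) over the median of those 24 mice, on a log axis. *Nox4* stands at 3.11 times, *Sod3* at 1.74 times and *Cyba* at 1.52 times that median, and *Txnrd2* at 0.791 times.

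Beyond the 10 genes, the rest of the pathway gave 1 call for exercise, in a comparison that called 10.4% of all genes. Of 18 other peroxidases and thioredoxin genes, edgeR called 1, a lower share than that, and it was *Srxn1*, which encodes sulfiredoxin, the enzyme that restores overoxidized peroxiredoxins. *Srxn1* was at 34.2 to 47.6 CPM in all 12 rested mice and at 38.7 to 178 CPM in the 13 exercised mice, with a log2 fold change of 0.95 (SE 0.21, adjusted p = 0.0031), which was 0.33 in females alone (adjusted p = 0.145). Its response differed between the sexes, by 1.04 on the log2 scale (SE 0.17, adjusted p = 0.018), with 61.7 through a median of 113 to 178 CPM in the 6 exercised males and 38.7 through 45.9 to 55.0 CPM in the 7 exercised females. The exercised males thus lay above every other mouse. This call was lost when any 1 of mice 1, 2, 6 and 11 was left out (adjusted p up to 0.101) and with library totals (adjusted p = 0.073). Of 11 other NADPH oxidase genes that passed the filter on low counts, of 16 listed, 0 were called for exercise (2 at an unadjusted p under 0.05). The same held for 6 other oxidant sources, such as xanthine dehydrogenase and the monoamine oxidases (0 called, 1 unadjusted), for 4 copper supply genes (0 and 1) and for 4 genes that supply mitochondrial NADPH (0 and 1). For genotype, 0 genes of these 5 lists were called by edgeR (0.269% of all genes), with 3 at an unadjusted p under 0.05.

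For sex, 9 of the 18 other peroxidases and thioredoxin genes were called by edgeR, 7 higher and 2 lower in males, where 8.15% of all genes were called and 5.36% as higher in males. Those with the smallest adjusted p were *Srxn1* (0.80, SE 0.088, adjusted p = 3.4e-06), *Txnrd1*, the cytosolic thioredoxin reductase (0.23, SE 0.049, adjusted p = 0.0054), *Prdx2* (0.21, SE 0.046, adjusted p = 0.0068) and *Gpx3*, the secreted glutathione peroxidase, which was lower in males (-0.50, SE 0.12, adjusted p = 0.0092). The *Srxn1* estimate is an average over rest and exercise. At rest *Srxn1* stood at 44.2 ± 3.10 CPM (mean ± SD) in 7 males and 36.9 ± 2.92 CPM in 5 females. After exercise *Srxn1* stood at 119 ± 41.1 CPM in 6 males and 46.5 ± 6.47 CPM in 7 females. The call of *Gpx3* was lost without mouse 1 (edgeR adjusted p = 0.0537). Of 11 other NADPH oxidase genes 1 was higher in males, *Poldip2*, whose product binds p22phox (0.22, SE 0.045, adjusted p = 0.0031), and of 6 other oxidant sources 1 was lower, *Maoa* (-0.28, SE 0.064, adjusted p = 0.0081). *Me3*, a mitochondrial malic enzyme, was the only one of 4 NADPH supply genes called (0.20, SE 0.060, adjusted p = 0.038), and 0 of 4 copper supply genes were, with 1 at an unadjusted p under 0.05. Of these, *Txnrd1*, *Prdx2*, *Poldip2* and *Me3* were not called with library totals, while *Srxn1*, *Gpx3* and *Maoa* were. Without females 20 to 25, *Srxn1* and *Gpx3* kept their calls and the other 5 lost theirs, and *Me3* also lost its call without females 1 to 6 and without any 1 of 16 mice.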

How the data were processed

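Total RNA of the *soleus* was depleted of ribosomal RNA by the authors, made into strand-specific libraries and read as 75-bp paired ends. The deposited values are raw counts per gene and library, aligned by the authors to mm10 with GENCODE mouse release 15. The submitters' processing notes name FastQC 0.11.5, STAR 2.5.3a and featureCounts 1.5.3, and whether counting used the strand is not given in the sources used here. 0 columns belonged to other samples, and 67 replicate pairs all differed by more than sampling noise (lowest chi-square per gene 14.5).

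Groups came from the labels. Symbols came from GENCODE mouse release 21, with one for 52403 of 52636 genes. Genes were kept by filterByExpr (minimum count 10, minimum total 15), which left 16340 genes for the 4 groups and 17389 for the 8 groups with sex. edgeR 4.0.16 with limma 3.58.1 in R 4.3.3 fitted 1 mean per group to TMM-scaled counts with the quasi-likelihood F test, without sex as a term. Main effects averaged over the other factor with equal weights. P-values were adjusted by Benjamini-Hochberg over all genes tested (FDR 5%), and SE is the log2 fold change over the root of F. Intervals are at 95%. The script was tested on simulated data. Alternatives were library totals, no filter, a minimum count of 30, robust dispersion, DESeq2 1.42.0, sex or number ranges as terms, 1 sex alone and leaving out each mouse. Leaving out females 1 to 6, females 20 to 25, or mice 7 and 15 was added after seeing the data.

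All 10 members are described, and of the other lists the genes that passed are named, at most 4 per list by smallest adjusted p, and the 3 genes most correlated with each member (log2 CPM with a prior count of 2, mean at least 0). The members and lists were chosen with earlier results of these data known. Motifs were read on both strands of the RefSeq windows. Mouse 7 was singled out after its values were seen. Other assays of the study were not analysed here. A withheld item is not reported here.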

Additional observations from a re-analysis of the deposited data

Results flagged for a closer look

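Of 40 sets of 1 gene in 1 group, 2 held a mouse that stood apart from its group by Dixon's test, and chance gives about 1 in 20, or 2. *Nox4* in mouse 7, a rested mD3AKO mouse, was at 18.9 CPM, where the next mouse of its group was at 6.69 CPM. *Cyba* in mouse 5, an exercised WT mouse, was at 11.7 CPM, where the next was at 8.26 CPM. *Srxn1*, the sulfiredoxin gene, responded more to exercise in males than in females, by 1.04 on the log2 scale (edgeR's test of the difference, adjusted p = 0.0175), and this test was lost in 5 of 30 settings, with adjusted p up to 0.101.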

How the results depend on the processing

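No paired analysis was possible because each mouse has a number of its own. The calls of the 10 genes did not move in any of 35 settings for exercise, genotype and the interaction, where 0 were called, and the lowest adjusted p reached was 0.17, 0.571 and 0.992. For sex, 3 were called, but 0 with library totals and without females 20 to 25, 5 without females 1 to 6, and 1 to 3 on leaving out 1 mouse, with 1 without mouse 20. *Prdx3* also missed the threshold with no filter (adjusted p = 0.0563). The estimates that turned sign were close to 0 or without a call, and the cause was not tested. With library totals, the sign turned for exercise *Sod1* (-0.0104), *Cat* (-0.00968), *Cyba* (-0.0223), *Prdx3* (-0.00538) and *Txn2* (-3.30e-05), for genotype *Cat* (-0.0125), *Txn2* (-0.0296) and *Txnrd2* (-0.00414), for the interaction *Sod1* (-0.0111) and for sex *Sod1* (-0.039), *Cat* (-0.0759), *Nox4* (-0.0858) and *Txnrd2* (-0.102). In males alone, the sign turned for exercise *Sod1* (-0.00703) and *Cyba* (-0.0201), for genotype *Txn2* (-0.0108) and for the interaction *Sod1* (-0.0208), *Sod2* (-0.0463), *Sod3* (0.084), *Cyba* (0.0206), *Prdx5* (-0.0224), *Txn2* (-0.131) and *Txnrd2* (0.00815). With no filter, the sign turned for exercise *Cat* (-0.00166) and *Prdx3* (-1.88e-05) and for the interaction *Sod1* (-0.00909). With a minimum count of 30, the sign turned for exercise *Cat* (-8.36e-04) and for sex *Nox4* (-0.00155). With DESeq2, the sign turned for exercise *Cat* (-0.00161) and *Prdx3* (-7.36e-05). With mouse number blocks, the sign turned for exercise *Cat* (-0.0154) and for the interaction *Sod1* (-0.019), *Sod2* (-0.00476), *Prdx5* (-0.028) and *Txn2* (-0.0219). In females alone, the sign turned for exercise *Cat* (-0.0544), *Nox4* (0.0453) and *Prdx5* (0.0452), for genotype *Cat* (-0.0369) and for the interaction *Cat* (0.0185) and *Nox4* (0.173). In the 8 groups, the sign turned for exercise *Cyba* (-0.00175) and *Prdx5* (0.00893). With sex as a term, the sign turned for exercise *Prdx5* (0.00667) and for the interaction *Sod1* (-0.00461) and *Prdx5* (-0.00508). Without females 20 to 25, the sign turned for sex *Cat* (-0.141), *Cyba* (0.0755) and *Txnrd2* (-0.00924). Without females 1 to 6, the sign turned for sex *Nox4* (-0.0276). Without mice 7 and 15, the sign turned for sex *Nox4* (-0.16). Leaving out 1 mouse at a time, signs turned for exercise *Sod1* (-0.0166 to 0.0179), *Sod2* (-0.0118 to 0.0592), *Cat* (-0.0225 to 0.0299), *Nox4* (-0.184 to 0.0692), *Cyba* (-0.0657 to 0.0556), *Prdx3* (-0.0229 to 0.0278) and *Txn2* (-0.0223 to 0.0308); for genotype *Cat* (-0.0057 to 0.0531) and *Txn2* (-0.0161 to 0.0379); for the interaction *Sod1* (-0.0297 to 0.0296), *Sod2* (-0.00359 to 0.124), *Nox4* (-0.223 to 0.27), *Prdx5* (-0.0348 to 0.0937), *Txn2* (-0.0403 to 0.0663) and *Txnrd2* (-0.0603 to 0.0244); for sex *Cat* (-0.00466 to 0.101), *Nox4* (-0.19 to 0.0543), *Cyba* (-0.0847 to 0.0426) and *Txnrd2* (-0.0183 to 0.0327). Without mouse 7, *Nox4* turned for exercise, the interaction and sex, to 0.0692, 0.27 and -0.19.

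Counts over all genes moved more. For exercise, 1699 calls became 927 with library totals, 966 in males alone and 512 in females alone (984 became 484, 630 and 184 in mD3AKO and 587 became 293, 207 and 186 in WT mice). For genotype, 44 became 81 with DESeq2, 72 with sex as a term, 97 with mouse number blocks, 29 with library totals, 23 in males and 6 in females (18 after exercise became 28 with DESeq2, 6 and 5, and 15 at rest became 23, 4 and 4). For sex, 1418 became 748 with library totals, 834 without mouse 20 and 647 without females 20 to 25, where 308 were higher and 339 lower in males. For the sex difference in response, 8 became 20 with DESeq2, 23 with no filter, 3 with library totals and 3 to 17 on leaving out 1 mouse. The spread between mice was wide for *Cyba* and *Sod3* (coefficients of variation 24.0% and 22.1%, or 22.8% and 18.4% without mouse 7), while that of *Nox4*, 40.8%, became 14.2% without mouse 7.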
